A study of Homo sapiens with 10 samples.

Results

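NF-κB is a family of transcription factors that switches on inflammatory, survival and immune genes. Its dimers are built from RELA, RELB, REL, and the p50 and p52 proteins made from *NFKB1* and *NFKB2*. In resting cells IκB proteins hold the dimers in the cytoplasm until the IKK kinases mark these inhibitors for destruction. Several products of NF-κB target genes act back on the pathway. IκBα, encoded by *NFKBIA*, returns the dimers to the cytoplasm, and A20, encoded by *TNFAIP3*, edits ubiquitin chains upstream of IKK. cIAP2, encoded by *BIRC3*, is a ubiquitin ligase at the TNF receptors, and the chemokines *CXCL1*, *CXCL2* and *CXCL3* attract neutrophils. These 10 genes were chosen by name, as the subunits, the inhibitors and the classic feedback and chemokine targets of the pathway, and the rule that picks them uses no measured value, although earlier results of these data were known when it was set. *ZMAT3*, a p53 target gene, encodes a zinc finger RNA-binding protein.

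RNA-seq was performed in 10 libraries of HCT116 cells, a human colorectal cancer line with wild-type p53, grown without drug treatment in DMEM with 10% FBS. In the *ZMAT3* experiment, 3 libraries came from a *ZMAT3*-WT clone and 3 from a *ZMAT3*-KO clone, which was made with Cas9 and sgRNAs flanking the p53 response element in an intron of *ZMAT3*. Each genotype is thus represented by 1 clone, and the spread between its libraries is that between cultures. In the siRNA experiment, 2 libraries came from cells transfected with a control siRNA (siCTRL) and 2 from cells transfected with a pool of 4 siRNAs against p53 (sip53), both for 72 hr. The descriptions of the *ZMAT3* samples also carry the letters EV and unt, to which no vector or treatment was assigned here. The *ZMAT3* table lists log2 CPM (counts per library, scaled to a common total) for 13029 genes, among them 7 of the 10 genes. *CXCL1*, *CXCL2* and *CXCL3* were not analysed in that experiment. The siRNA table lists FPKM (fragments per kilobase of transcript, scaled to library depth) for 17642 genes, all 10 included. The tables were normalised separately, so values of the 2 experiments are set side by side and were not tested against each other.

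The labels held in the data. *ZMAT3* was at 5.00, 5.20 and 5.26 log2 CPM in the *ZMAT3*-WT libraries and at 2.25, 2.34 and 2.20 in the *ZMAT3*-KO libraries, a log2 fold change of -2.89 (SE 0.070, adjusted p = 3.76e-12), so the transcript was reduced and still measured. With sip53 the p53 target *CDKN1A* fell by 3.80 on the log2 scale (adjusted p = 0.00869). *ZMAT3* fell by 2.31 with sip53 (adjusted p = 0.067), which passed the study's unadjusted threshold. In each *ZMAT3* library the linear values summed to between 999929 and 999931 CPM and ran from the same lowest to the same highest value, so their depth is unknown. The FPKM summed to between 708634 and 829230 per library, and their depth is given only as the authors' mean signal per gene, which totals 30841445. Of 8 listed colon epithelial markers, 6 were measured in the *ZMAT3* and 7 in the siRNA experiment. *EPCAM* and *CDH1* were expressed in all libraries (8.54 and 6.33 log2 CPM on average in *ZMAT3*-WT). *KRT8*, *KRT18* and *KRT19* were lower in *ZMAT3*-KO, as given below, and *VIL1* averaged 0.20 FPKM with siCTRL and 0.16 with sip53. The 4 leukocyte markers with a value summed to between 1.13 and 2.96 FPKM in the siRNA libraries. They were not analysed in the *ZMAT3* libraries.

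The promoters are shown because NF-κB acts on its targets through a 10-base motif, the κB consensus, and because *NFKBIA*, which rose in the *ZMAT3*-KO clone, and *TNFAIP3* and *BIRC3*, which fell, all carry it. The 250 bases before the RefSeq start sites (GRCh38.p14) were searched on both strands, counting matches that overlap as 1 stretch. Start sites were listed for 9 of the 10 genes, in 13 windows whose letters were all equal to hg38. The consensus was found before at least 1 start site of 8 of these 9 genes, the exception being *RELA*, against 6.28% of the 27305 genes in the table and 5.21% of its 35116 windows. *BIRC3*, *TNFAIP3* and *NFKB2* each had a window with 2 stretches, which 0.253% of all windows hold. The AP-1 motif TGANTCA was in none of the 13 windows, against 6.57% of all windows. With 13 windows this count is near the background and is no result about the genes. The genes were chosen as subunits, inhibitors and classic targets of the pathway. Their κB share is thus not independent of that choice, and the contrast with all genes is a description only. A match is a run of letters and not evidence of binding. The stretches before *NFKBIA*, *TNFAIP3* and *BIRC3* are printed below 5′ to 3′ on the gene's strand, in lower case with the κB matches in capitals. The *TNFAIP3* stretch ends where its first annotated exon begins.
*NFKBIA* (chr14:35404750-35404999, minus strand, no annotated exon): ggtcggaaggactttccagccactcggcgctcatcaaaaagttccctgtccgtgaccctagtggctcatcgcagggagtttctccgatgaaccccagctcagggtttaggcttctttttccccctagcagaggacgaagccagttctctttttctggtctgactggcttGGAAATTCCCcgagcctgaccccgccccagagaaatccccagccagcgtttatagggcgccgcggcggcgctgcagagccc
*TNFAIP3* (chr6:137867009-137867213, plus strand, no annotated exon): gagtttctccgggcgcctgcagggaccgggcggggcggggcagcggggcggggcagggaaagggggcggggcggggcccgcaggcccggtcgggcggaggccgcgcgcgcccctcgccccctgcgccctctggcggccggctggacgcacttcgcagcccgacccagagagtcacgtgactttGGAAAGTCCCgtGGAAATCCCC
*BIRC3* (chr11:102317234-102317483, plus strand, no annotated exon): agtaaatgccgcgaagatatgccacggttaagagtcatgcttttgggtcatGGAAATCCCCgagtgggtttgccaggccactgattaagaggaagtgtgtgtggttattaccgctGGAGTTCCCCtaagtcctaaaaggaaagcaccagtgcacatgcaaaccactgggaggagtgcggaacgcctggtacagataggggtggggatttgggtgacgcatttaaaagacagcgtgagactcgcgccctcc

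The match of *NFKBIA* lay 81 to 72 bases before its start site and read on the opposite strand. Those of *TNFAIP3* lay 67 to 58 and 55 to 46 bases before, 2 bases apart, and those of *BIRC3* lay farther out, at 199 to 190 and 135 to 126 bases. The chemokine genes form a cluster on chromosome 4, and the surrounding 29 bases are shown because their κB sites have the same letters. The matches on the 2 strands overlap there and make 11 bases in capitals.
*CXCL1* (chr4:73869305-73869333, plus strand, upstream of the gene): tggaactccGGGAATTTCCCtggcccggg
*CXCL2* (chr4:74099254-74099282, minus strand, upstream of the gene): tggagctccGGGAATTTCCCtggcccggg
*CXCL3* (chr4:74038749-74038777, minus strand, within an exon of a longer *CXCL3* transcript with no coding sequence): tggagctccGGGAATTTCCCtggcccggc
The matches began 79, 78 and 79 bases before the start sites of *CXCL1*, *CXCL2* and *CXCL3*. When the windows were set against each other at this site, without gaps, *CXCL1* and *CXCL3* had equal letters at 121 of 160 positions (75.6%), *CXCL2* and *CXCL3* at 101 (63.1%), and *CXCL1* and *CXCL2* at 99 (61.9%). *NFKB1* had 1 match, 49 to 40 bases before its first start site, and *NFKB2* had matches before its later start sites only.

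**Figure D1:**
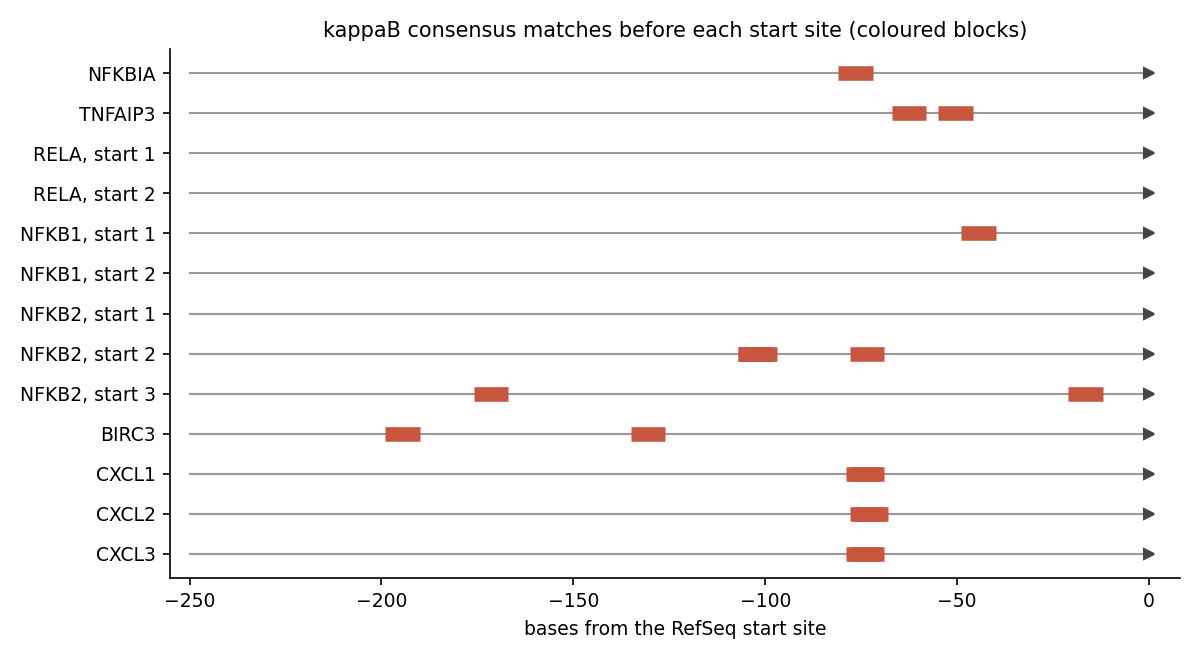
Position of the κB consensus (coloured blocks) in the 250 bases before each RefSeq start site (arrowhead at 0) of 9 of the genes. The x axis gives bases from the start site. The chemokine blocks sit at nearly the same distance, between 79 and 68 bases before the start, and *RELA* has none.

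Loss of ZMAT3 was compared with the wild type to ask which RNAs depend on it. The 7 measured genes did not move as a block in the *ZMAT3*-KO clone. *NFKBIA* and *RELB* were higher by 1.29-fold and 1.46-fold, *BIRC3* and *TNFAIP3* were lower by 1.65-fold and 1.36-fold, and *RELA*, *NFKB1* and *NFKB2* differed by 1.07-fold or less. By the study's rule of an adjusted p under 0.05 and a 1.5-fold change, 0 members were called higher, against 4.6% of all genes, and 1 of 7, *BIRC3*, was called lower, against 4.37%. At the adjusted p alone, 2 rose, against 28.7% of all genes, and 3 fell, against 30.1%. The groups did not overlap in 5 of the 7, with the *ZMAT3*-KO libraries above in 2 (31.3% of all genes) and below in 3 (32.9% of all genes). With 7 genes these counts are near the background and are no result about the group. The median log2 fold change of the 7 was -0.0104, and that of all genes was -0.00523. Fewer expressing cells and less RNA per cell cannot be told apart in such bulk libraries.

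Both feedback inhibitors passed the test, in opposite directions. *NFKBIA* (chromosome 14, 35401079 to 35404749) was at 4.57, 4.55 and 4.52 log2 CPM in *ZMAT3*-WT and at 4.97, 4.86 and 4.92 in *ZMAT3*-KO. All 3 *ZMAT3*-KO libraries lay above all 3 *ZMAT3*-WT libraries, and *NFKBIA* rose by 0.37 on the log2 scale (SE 0.043, 95% interval 0.28 to 0.46, adjusted p = 1.12e-05). *TNFAIP3* (chromosome 6, 137867214 to 137883314) was at 2.07, 1.88 and 1.87 log2 CPM in *ZMAT3*-WT and at 1.56, 1.52 and 1.43 in *ZMAT3*-KO. Here every *ZMAT3*-KO library was the lower one, and *TNFAIP3* fell by 0.44 (SE 0.098, 95% interval -0.65 to -0.23, adjusted p = 0.00197). Leaving out any 1 library kept *NFKBIA* between 0.34 and 0.40 and *TNFAIP3* between -0.48 and -0.38.

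Among the subunits, *RELB*, the partner of p52 in the non-canonical pathway, stood apart. It was at 3.28, 3.04 and 3.19 log2 CPM in *ZMAT3*-WT and at 3.75, 3.71 and 3.71 in *ZMAT3*-KO, with no overlap. *RELB* rose by 0.55 (SE 0.066, 95% interval 0.41 to 0.69, adjusted p = 1.47e-05), just short of the 0.58 that 1.5-fold means on this scale, and it crossed that line, at 0.60, without *ZMAT3*-WT replicate 1. *NFKB2*, which encodes the p52 precursor, was at 6.02, 5.93 and 5.93 in *ZMAT3*-WT and at 6.06, 6.02 and 6.04 in *ZMAT3*-KO. Its groups touched, and the difference of 0.08 did not pass (SE 0.035, adjusted p = 0.0705), although it did without *ZMAT3*-WT replicate 1 (0.11, adjusted p = 0.00888). *NFKB1*, which encodes the p50 precursor, was at 5.93, 6.01 and 5.98 in *ZMAT3*-WT and at 5.87, 5.89 and 5.85 in *ZMAT3*-KO. It fell by 0.10 (SE 0.033, adjusted p = 0.0187), with the groups apart, and the call was lost in 4 of the 6 fits that left out a library, with adjusted p up to 0.087 (without *ZMAT3*-WT replicate 2 or 3, or *ZMAT3*-KO replicate 1 or 3). *RELA*, the main activating subunit of the canonical pathway, was at 6.63, 6.52 and 6.53 in *ZMAT3*-WT and at 6.58, 6.53 and 6.54 in *ZMAT3*-KO. Its groups overlapped, and the log2 fold change of -0.01 had a 95% interval of -0.09 to 0.07 (adjusted p = 0.817).

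*BIRC3* (chromosome 11, 102317484 to 102339403) showed the largest change of the 7. It was at 1.59, 1.63 and 1.52 log2 CPM in *ZMAT3*-WT and at 0.91, 0.63 and 1.02 in *ZMAT3*-KO. The *ZMAT3*-KO libraries varied more among themselves (SD 0.20 against 0.05, n = 3) and were all below the *ZMAT3*-WT libraries. *BIRC3* fell by 0.72 (SE 0.126, 95% interval -0.997 to -0.451, adjusted p = 0.00032), with a log2 fold change of -0.81 to -0.61 when any 1 library was left out. Adding 1 CPM to all values brought the fall to 0.50, under 1.5-fold (adjusted p = 0.000204). Its neighbour on chromosome 11, *BIRC2*, which encodes cIAP1, was at 5.47 ± 0.050 in *ZMAT3*-WT and at 5.57 ± 0.037 in *ZMAT3*-KO (SD, n = 3), and rose by 0.10 (adjusted p = 0.0355).

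**Figure D2:**
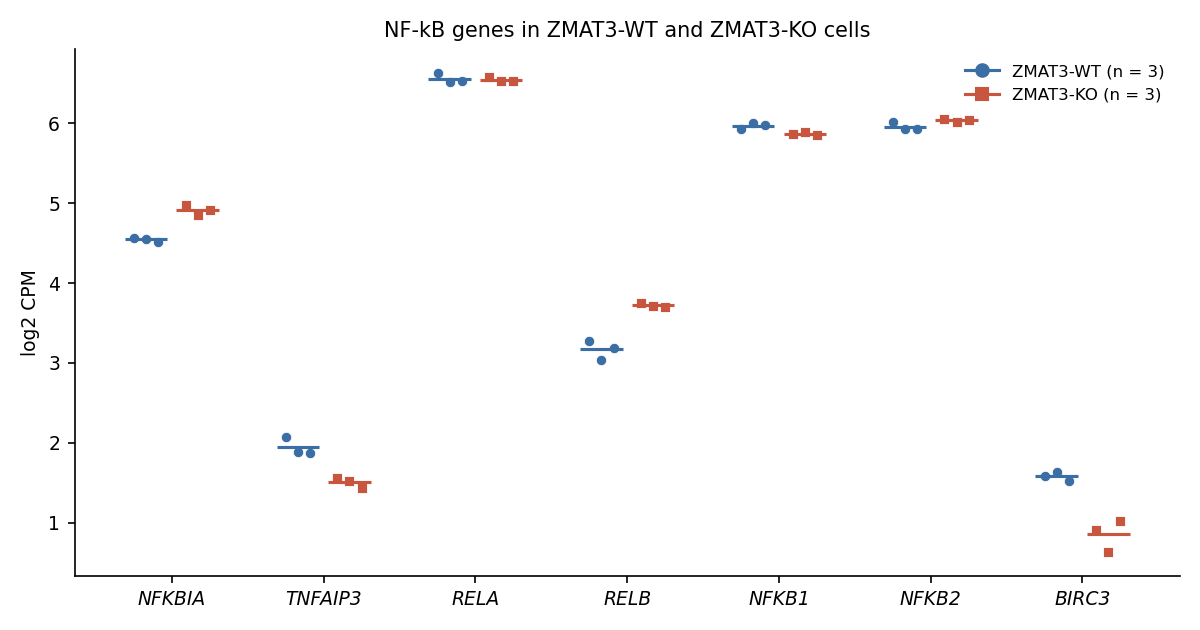
Log2 CPM (y axis) of the 7 measured genes in 3 *ZMAT3*-WT libraries (circles) and 3 *ZMAT3*-KO libraries (squares), with a bar at each group mean. *NFKBIA* and *RELB* are higher in every *ZMAT3*-KO library, and *TNFAIP3* and *BIRC3* are lower in every one.

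The wider pathway was followed through 98 further genes in 7 lists, of which 66 were measured in the *ZMAT3* experiment. None was called higher, against 4.6% of all genes, and 8 of the 66 (12.1%) were called lower, against 4.37%. At the adjusted p alone 12 of the 66 rose, against 28.7% of all genes, and 27 fell, against 30.1%. The median log2 fold change was -0.09, beside -0.00523 for all genes, and no test was run on any of the lists. The lists were chosen with earlier results of these data known, so their shares and medians are a description only. The same background of 28.7% higher and 30.1% lower applies to the counts of each list, and those of the kinases, adaptors and receptors are given as counts only, not as results about these lists. Among the IKK complex and its upstream kinases, 3 of 13 rose (*IRAK1*, *IRAK4* and *RIPK1*) and 5 fell (*MAP3K14*, *MAP3K8*, *IKBKE*, *IKBKG* and *IRAK2*) at the adjusted p. *MAP3K14*, which encodes NIK, the kinase that starts p52 processing, was at 3.34 log2 CPM in *ZMAT3*-WT and fell by 0.64 (adjusted p = 1.45e-05). *MAP3K8*, which encodes the kinase TPL2, fell by 0.69 (adjusted p = 0.0049) from a low level of 0.55 log2 CPM. Of 20 adaptors and ubiquitin enzymes, 6 rose and 5 fell (*MALT1*, *SHARPIN*, *TNIP1*, *TRADD* and *TRAF2*). *MALT1*, the protease that cleaves A20 and other brakes on NF-κB in lymphocytes, was at 7.18, 7.19 and 7.24 in *ZMAT3*-WT and at 5.96, 6.01 and 5.93 in *ZMAT3*-KO. It fell by 1.24 (SE 0.032, adjusted p = 7.27e-12), the largest change of the 66. Of 10 receptors *TNFRSF1A*, which encodes the main TNF receptor, rose, and *TNFRSF11A*, *CD40* and *IL1R1* fell. *TNFRSF11A*, which encodes RANK, fell by 0.62 (adjusted p = 0.00132) from a low level of 1.96 log2 CPM in *ZMAT3*-WT. Of the 5 other subunits and IκB genes none rose and *BCL3* and *NFKBIB* fell, and *REL* did not pass (3.04 against 3.13, adjusted p = 0.423). Of the 2 ligands measured, *IL18* fell by 0.48 (adjusted p = 1.07e-05).

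Of the other genes known as NF-κB targets, 16 were measured. At the adjusted p 2 of the 16 rose (*TNFAIP2* and *TNFAIP8*), against 28.7% of all genes, 11 fell, against 30.1%, and 3 did not pass. By the 1.5-fold rule 0 were called higher, against 4.6%, and 4 lower, against 4.37%. Their median log2 fold change was -0.35, beside -0.00523 for all genes. This list too was chosen with earlier results of these data known, and the shift was not tested. *IER3*, an early-response survival gene, was at 8.74, 8.66 and 8.65 log2 CPM in *ZMAT3*-WT and at 7.92, 7.82 and 7.89 in *ZMAT3*-KO. It fell by 0.81 (SE 0.034, adjusted p = 9.27e-10). *GADD45B*, a stress gene that restrains JNK signalling, fell by 0.74 (adjusted p = 1.74e-07). *CSF1*, the macrophage growth factor, fell by 0.69 (adjusted p = 0.00164), and the cell surface proteoglycan gene *SDC4* fell by 0.63 (adjusted p = 6.83e-09). Of the members that passed the adjusted p, *TNFAIP3*, *BIRC3* and *NFKB1* moved in the direction of the 11 that fell. *NFKBIA* and *RELB* moved in that of the 2 that rose. These shared directions were not tested and are no result about the members. Many of these genes answer to other factors as well. Of the 6 measured colon epithelial markers, 3 fell, *KRT19* by 1.75, *KRT8* by 0.94 and *KRT18* by 0.82, and the summed level of the 6 was 5757 to 6083 CPM in *ZMAT3*-WT and 3160 to 3242 CPM in *ZMAT3*-KO. *EPCAM* and *CDH1* differed by 0.01 and 0.05 and did not pass. The only fibroblast or endothelial marker measured, *COL1A1*, was at 9.16 to 9.79 CPM in *ZMAT3*-WT and 10.4 to 10.9 CPM in *ZMAT3*-KO. The part of the epithelial markers in the NF-κB results was not tested.

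**Figure D3:**
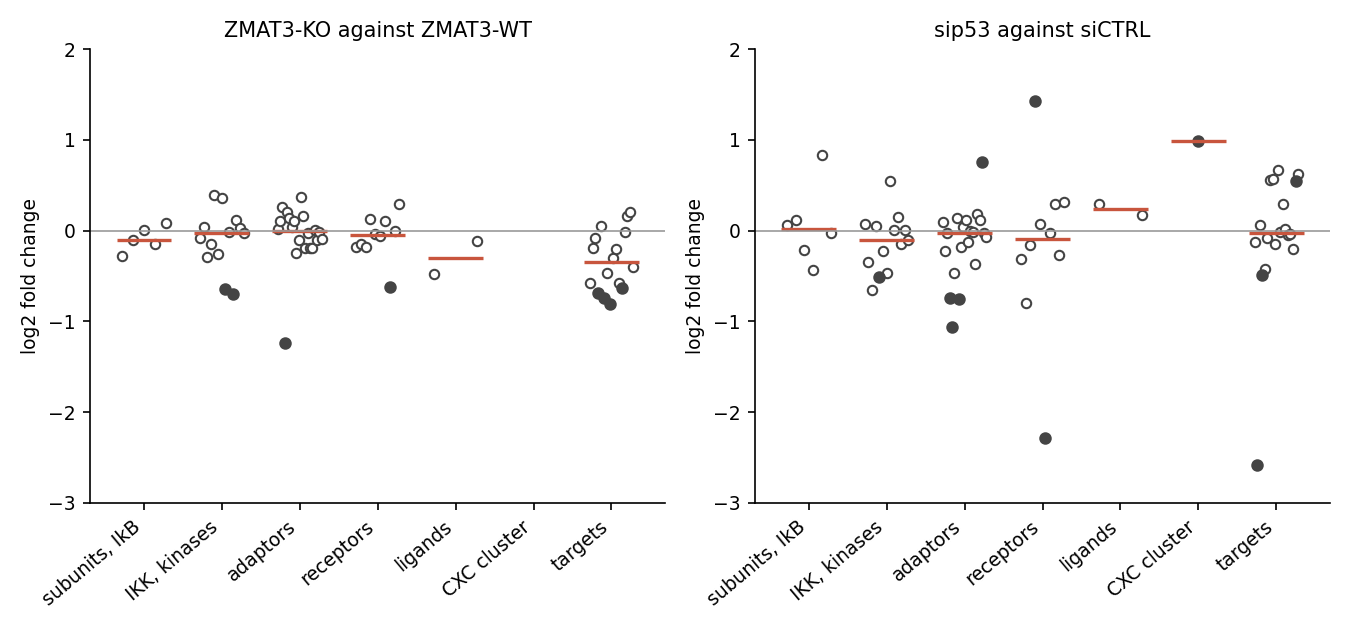
Log2 fold change (y axis) of the further pathway genes in 7 lists, left for *ZMAT3*-KO against *ZMAT3*-WT and right for sip53 against siCTRL. Each point is a gene, filled where it was called by the comparison's own rule, and bars are medians, which for the target list are -0.35 on the left and -0.03 on the right.

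Depletion of p53 was compared with the control siRNA to ask which RNAs depend on p53. None of the 8 tested genes passed the study's threshold, an unadjusted p under 0.05, in the limma fit made here. In limma 8 of the 10 could be tested, having a mean of at least 0.5 FPKM, and 0 were called higher, against 5.86% of all genes, and 0 lower, against 9.28%. At an adjusted p of 0.05 the count was 0 as well, beside 0.273% of all genes. Of the 8 log2 fold changes 7 were above 0, beside 6553 of all 14274 tested genes. Their median was 0.10, where that of all genes was -0.04. For *NFKBIA*, *NFKB1* and *RELA* the sign depended on which library was left out, as given below. The sip53 libraries lay above both siCTRL libraries in 3 of the 8, *NFKB2*, *BIRC3* and *TNFAIP3* (20.1% of all genes), and below in 0 (26.3% of all genes). No test was run on the 8 as a group, and these counts are no result about it. The standard errors ran from 0.176 to 0.415, and a difference of 0.37, as *NFKBIA* had in the *ZMAT3* experiment, lay inside all 8 of the 95% intervals.

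With siCTRL the order of the levels, in FPKM, was *RELA* (59.1), *NFKB2* (49.0), *NFKBIA* (42.9), *NFKB1* (14.4), *RELB* (9.39), *BIRC3* (7.08), *CXCL1* (1.93), *TNFAIP3* (1.87), *CXCL3* (0.405) and *CXCL2* (0.135). *RELA* overlapped with *NFKB2*, and *NFKB2* with *NFKBIA*, and *CXCL1* and *TNFAIP3* shared a value, while the other neighbours did not overlap between the 2 libraries. The levels at the low end rest on few reads, with an authors' mean signal of 47.8 for *CXCL1*, 11.3 for *CXCL3* and 4.91 for *CXCL2*, against 4165 for *NFKB2*.

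*NFKB2* came nearest to the threshold. It was at 46.77 and 51.15 FPKM with siCTRL and at 68.47 and 63.77 FPKM with sip53. Both sip53 libraries were higher, and the log2 fold change on the log2(FPKM + 0.1) scale was 0.43 (SE 0.176, 95% interval -0.01 to 0.88, adjusted p = 0.336). It was called at the unadjusted threshold when the filter on low FPKM was dropped and when libraries were centred on their medians (adjusted p = 0.284 in both). *BIRC3* was at 6.92 and 7.23 FPKM with siCTRL and at 10.27 and 8.46 FPKM with sip53. These groups did not overlap either, and the log2 fold change was 0.39 (SE 0.194, 95% interval -0.10 to 0.88, adjusted p = 0.413). Side by side, *BIRC3* had a log2 fold change of -0.72 in the *ZMAT3*-KO clone and had a positive, uncalled value with sip53, where *ZMAT3* itself was also reduced. The difference between the experiments was not tested.

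*TNFAIP3* was at 1.87 FPKM in both siCTRL libraries and at 1.95 and 2.03 with sip53, a log2 fold change of 0.09 (95% interval -0.53 to 0.70, adjusted p = 0.908). *RELB* was at 8.70 and 10.08 with siCTRL and at 11.44 and 9.86 with sip53, and its groups overlapped (log2 fold change 0.18, 95% interval -0.31 to 0.67, adjusted p = 0.722). *NFKB1* was at 13.83 and 14.91 with siCTRL and at 16.05 and 13.35 with sip53 (log2 fold change 0.03, 95% interval -0.45 to 0.50, adjusted p = 0.965). In *RELB* and *NFKB1* the lower library of the sip53 pair was replicate 2. *NFKBIA* was at 48.38 and 37.43 FPKM with siCTRL and at 42.61 and 50.55 with sip53 (log2 fold change 0.12, 95% interval -0.42 to 0.67, adjusted p = 0.836). *RELA* had the largest SE of the 8 tested genes (0.415), at 70.81 and 47.37 FPKM with siCTRL and at 40.21 and 86.26 with sip53 (log2 fold change 0.02, 95% interval -1.02 to 1.07, adjusted p = 0.987). In both, siCTRL replicate 1 and sip53 replicate 2 were the higher libraries of their groups. The sign of *NFKBIA*, *NFKB1* and *RELA* depended on which library was left out. *NFKBIA* was at -0.06 without siCTRL replicate 2, *NFKB1* at -0.10 without sip53 replicate 1 and at -0.03 without siCTRL replicate 1, and *RELA* at -0.27 without siCTRL replicate 2 and at -0.53 without sip53 replicate 2.

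The chemokine genes were barely expressed. *CXCL1* (chromosome 4, 73869393 to 73871308) was at 1.98 and 1.87 FPKM with siCTRL and at 1.37 and 1.89 with sip53, with overlapping groups (log2 fold change -0.24, SE 0.287, 95% interval -0.97 to 0.48, adjusted p = 0.749). *CXCL2* was at 0.20 and 0.07 FPKM with siCTRL and at 0.18 and 0.20 with sip53, and *CXCL3* was at 0.34 and 0.47 with siCTRL and at 0.66 and 0.22 with sip53. Both were under the filter of 0.5 FPKM. Fitted without a filter, *CXCL2* had a log2 fold change of 0.36 (95% interval -0.63 to 1.35, adjusted p = 0.692) and *CXCL3* one of -0.02 (95% interval -1.49 to 1.44, adjusted p = 0.998). The 3 chemokine genes with the shared κB site printed above were thus all under 2 FPKM in these cells. The same 10-base match also lies before *NFKB1* and, on the opposite strand, before *NFKBIA*. These 2 genes were at 14.4 and 42.9 FPKM with siCTRL. *CXCL8*, which encodes interleukin-8 in the same chromosome 4 family, was at 6.59 and 4.53 FPKM with siCTRL and at 10.39 and 11.59 with sip53. Its groups were apart, with a log2 fold change of 0.99 (SE 0.243, adjusted p = 0.181).

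**Figure D4:**
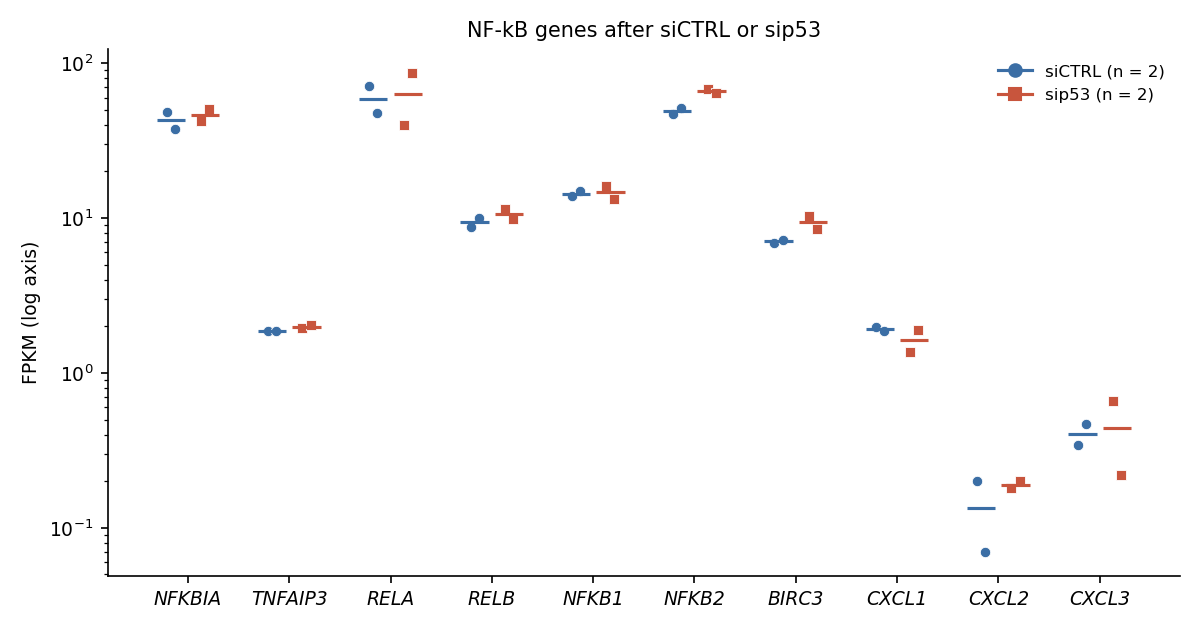
FPKM on a log axis (y axis) of the 10 genes in 2 siCTRL libraries (circles) and 2 sip53 libraries (squares), with a bar at each group mean. *NFKB2* and *BIRC3* are higher in both sip53 libraries, *RELA* spreads from 40.21 to 86.26 FPKM within the sip53 group, and *CXCL2* and *CXCL3* lie at the bottom.

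Of the further pathway genes, 81 were measured and 70 tested with sip53. At the unadjusted p 4 of the 70 were higher, against 5.86% of all genes, and 7 lower, against 9.28%, so that 15.7% were called in either direction beside 15.1% of all genes. At the adjusted p 0 passed, and the median log2 fold change was -0.02. These shares are near the background and are no result about the pathway, and the called genes below are given as single values. *IL1RAP*, which encodes the shared subunit of interleukin-1 receptors, was at 1.19 and 1.61 FPKM with siCTRL and at 3.70 and 4.10 with sip53 (log2 fold change 1.43, adjusted p = 0.123). *TLR3*, the receptor for double-stranded RNA, was at 2.58 and 2.72 FPKM with siCTRL and at 0.46 and 0.47 with sip53 (log2 fold change -2.28, adjusted p = 0.0817). Of the adaptors, *MYD88* (-1.06, adjusted p = 0.15), *RNF31* (-0.75, adjusted p = 0.247) and *MALT1* (-0.74, adjusted p = 0.22) were called lower and *TRAF5* (0.76, adjusted p = 0.302) higher, in log2 fold change. The kinase gene *IRAK1* was called lower (-0.51, adjusted p = 0.315). Of 18 tested targets, *CCL5* (-2.58, adjusted p = 0.123) and *CFLAR* (-0.49, adjusted p = 0.33) were called lower and *TNFAIP8* (0.55, adjusted p = 0.251) higher, and the median was -0.03. Side by side, *MALT1* was called lower in both comparisons, each by its own threshold. Of the epithelial markers *EPCAM* was called higher with sip53, at 198 and 300.2 FPKM on average, and their sum was 3737 and 3972 FPKM with siCTRL and 3532 and 4170 with sip53. The fibroblast and endothelial markers summed to between 4.32 and 7.23 FPKM. The part of these markers in the results was not tested. The counts of called pathway genes fell whichever library was left out, each such fit leaving 1 library in a group.

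**Figure D5:**
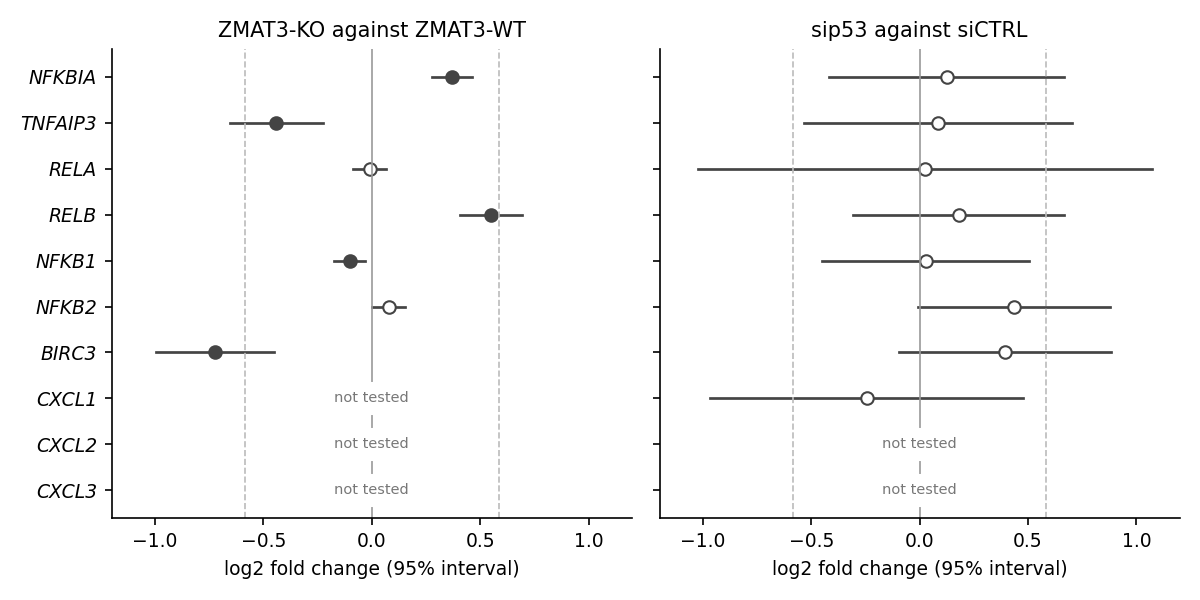
Log2 fold change (x axis) with its 95% interval from limma for the 10 genes in each comparison, filled where the adjusted p was under 0.05, with dashed lines at 1.5-fold. In the left panel 5 of 7 points are filled, and in the right panel none of the 8 is, with every interval reaching across 0.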

How the data were processed

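Groups were taken from the sample labels. For the *ZMAT3* experiment the authors used oligo(dT) capture, Cutadapt for trimming, STAR for alignment to hg38 and RSEM for quantification. The authors deposited log2 CPM, made by steps not given in the sources used here, and the libraries share 1 distribution of values, as quantile normalisation leaves. The siRNA values deposited by the authors were read here as FPKM, and a mean signal per gene goes with them. FPKM times transcript length over that signal had a median of 34.2 for 166 genes, against 32.4 if the values are FPKM. The submitters' processing notes name CASAVA 1.8.2, TopHat2 2.0.8, FastQC 0.11.2, hg19 and hg38 without roles. The deposited fold changes and p-values of the authors' own comparisons were not used.

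Each experiment was fitted alone over all genes with limma 3.58.1 in R 4.3.3 (lmFit, then eBayes with its trend option), with two-sided tests and Benjamini-Hochberg adjustment and without a replicate block. The *ZMAT3* libraries were fitted on the deposited log2 CPM, unfiltered, with calls at 1.5-fold and an adjusted p of 0.05. The siRNA libraries were fitted on log2(FPKM + 0.1), which understates changes of low genes, keeping genes whose mean reached 0.5 FPKM, with calls at an unadjusted p of 0.05. The script was tested on simulated data. Motifs were searched with Python 3.11.15 in RefSeq promoter windows (GRCh38.p14), gene positions are from GENCODE release 44 on hg38, and figures were drawn with matplotlib 3.10.9. The members and lists were chosen with earlier results of these data known. Named were all members and up to 4 called genes per list whose groups do not overlap, the largest changes first, the genes that check the labels (1 of these is not reported here), and, chosen after their values were seen, *BIRC2*, *REL*, *IL18*, the markers and the other genes given as passing an adjusted p. A planned search for the genes nearest to the chemokines in both experiments was not run, since these were analysed in 1 experiment only. The alternatives were other pseudocounts, filters, thresholds and centring, no variance trend, a replicate block and leaving out each library.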

Additional observations from a re-analysis of the deposited data

How the results depend on the processing

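In the *ZMAT3* experiment the members called, 0 higher and 1 lower, became 2 and 3 without the fold threshold, and 0 were lower at 2-fold or with a pseudocount of 1 CPM. The further pathway genes, 0 higher and 8 lower, became 12 and 27 without the fold threshold, with 1 lower at 2-fold and 4 lower with 1 CPM added. Leaving out 1 library gave 0 to 1 members higher, 1 lower, and 6 to 10 pathway genes lower. The log2 fold change of *RELA* ran from -0.0313 to 0.0241 over these fits and was above 0 without *ZMAT3*-WT replicate 1. A filter at a mean log2 CPM of 0, centring and dropping the variance trend left these 4 counts as they were. Without the fold threshold, 28.7% of all genes were called higher and 30.1% lower. For the other alternatives the shares of all genes called were not computed. Their counts are thus no result about the members or the pathway.

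In the siRNA experiment 1 member, *NFKB2*, was called higher without a filter and after centring. The pathway counts, 4 higher and 7 lower, were 0 and 0 at an adjusted p of 0.05 and 2 and 4 with a filter of 5 FPKM. They were 6 and 5 after centring, 6 and 7 without the variance trend, and 4 and 10 without a filter. With a pseudocount of 1 FPKM they were 4 and 6, and with a 1.5-fold threshold added they were 3 and 5. Leaving out 1 library gave 0 members in either direction, 2 to 3 pathway genes higher (2 without siCTRL replicate 2 or sip53 replicate 2) and 4 to 5 lower (4 without siCTRL replicate 1, siCTRL replicate 2 or sip53 replicate 2). Over these 4 fits the log2 fold change of *NFKB1* ran from -0.104 to 0.159, of *NFKBIA* from -0.0598 to 0.310 and of *RELA* from -0.525 to 0.574. The cause of these shifts was not tested. Apart from the adjusted p, the shares of all genes called in these alternatives were not computed. Their counts are thus no result about the members or the pathway.

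Same-numbered libraries did not deviate together in the *ZMAT3* experiment (r across genes of -0.04, -0.02 and -0.09). In the siRNA experiment they deviated in opposite directions (r = -0.62), and differently numbered libraries deviated together (r = 0.62). With 2 libraries per group these values mirror each other, and the cause was not tested. With the replicate block the *ZMAT3* counts stayed at 0 and 1 for members and 0 and 8 for pathway genes, *NFKB2* passed (adjusted p = 0.0439), and the siRNA pathway counts were 2 higher and 3 lower. With the crossed replicate block, an alternative chosen after seeing the data, 2 members were called higher and 0 lower, and 12 pathway genes higher and 14 lower. The shares of all genes called in the fits with a block were not computed. Their counts are thus no result about the members or the pathway. *CXCL2* and *CXCL3* have the smallest authors' mean signal of the members (4.91 and 11.3). With 1 clone per genotype, clone and genotype cannot be told apart.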
